A study of Homo sapiens with 4 samples.

Results

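The comparison described here set the RNA only library in which reverse transcription (RT) followed Tn5 tagmentation (Post) against the RNA only library in which RT came first (Pre). These are 2 of the 4 libraries of the series and were picked out by their labels. The comparison and its gene lists were chosen with earlier results of these data known. The series tested in which order transcripts and chromatin marks are best read from one sample, and its other pair of libraries had H3K27me3 and H3K27ac profiled on DNA as well as RNA. All came from H9, an established line of human embryonic stem cells labelled as primed stem cells. No treatment or engineered allele was named for any of the libraries, so the RNA only libraries differed, by their labels, in the order of RT alone. Whether an RNA only library was itself tagmented, and whether the libraries share a culture, is not given in the sources used here. Nuclei were extracted, lightly fixed with formaldehyde and given barcoded oligo(dT) primers for RT inside the nucleus.

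In this type of method the RT primer anneals to runs of A, chiefly the poly(A) tail that is added to most mRNAs when their 3′ end is cut. Replication-dependent histone mRNAs are the known exception among mRNAs. They are made in S phase to package new DNA, and they end in a short conserved hairpin, the stem-loop, instead of a poly(A) tail. Ribosomal RNA, small nuclear RNA, most small nucleolar RNA (snoRNA) and the RNA of the ribonuclease MRP particle also lack a long poly(A) tail. Nuclear RNA also holds many unspliced precursors, so introns contribute reads to long genes.

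The RT primers of the compared libraries had the same handle and differed in a barcode, shown in capitals, that was followed by 8 random bases (n) and then by oligo(dT). They are shown because this barcode is what assigns a read to a library.
RT 01, Pre, RNA only: aggccagagcattcgAGCAAnnnnnnnn
RT 03, Post, RNA only: aggccagagcattcgGTCGAnnnnnnnn

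The next sequences are stem-loops near an annotated transcript end of 4 histone genes, shown because histone genes had the highest median ratio of any family with several measured members. They were read from GRCh38 on the gene's strand, with the hairpin in capitals and 5 bases on either side.
HIST1H4C, plus strand, hairpin at chr6:26104317-26104332: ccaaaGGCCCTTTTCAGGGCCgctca
HIST1H2BD, plus strand, hairpin at chr6:26158587-26158602: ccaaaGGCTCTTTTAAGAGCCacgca
HIST1H3F, minus strand, hairpin at chr6:26250145-26250160: ccaaaGGCTCTTTTCAGAGCCaccaa
HIST1H1D, minus strand, hairpin at chr6:26234217-26234232: taaacGGCTCTTTTCAGAGCCaccca
The hairpin of HIST1H4C has a different stem from the other 3, and that of HIST1H2BD differs from those of HIST1H3F and HIST1H1D within the loop. The annotated gene HIST1H2BD runs on past its hairpin to chr6:26171349, so this hairpin is not at the end of the whole annotated gene.

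The deposited counts summed to 9379073 in Pre and 6368721 in Post. The 6 genes whose symbols start FP236383 or FP671120 held 12.3% of the counts in Pre (95% exact binomial interval 12.297% to 12.339%) and 34.8% in Post (34.783% to 34.857%), so Post stood apart in this respect before any other gene was compared. With DNA profiling these genes held 10.7% in Pre and 15.8% in Post. Levels are therefore given as RPM, which are reads per 1000000 counts of all other genes, 8223726 in Pre and 4151108 in Post. A log2 ratio is log2 of the Post over the Pre level after adding 1 RPM to each, which understates the change of low genes. There is 1 library on either side, so no difference has a replicate check, no test was made, and all intervals are 95% exact intervals that cover counting error only. Among genes averaging 10 RPM or more over both libraries, the count was 304 in Pre and 155 in Post at the median, which gave a median counting error of 0.14 on the log2 scale.

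Most genes were alike in the RNA only libraries. Of the 12594 genes averaging 10 RPM or more, 11575 (91.9%) lay within 1.5-fold, and the median log2 ratio was -0.01, with the 10th percentile at -0.39 and the 90th at 0.43. At least 2-fold higher in Post were 180 genes (1.43% of those measured), and at least 2-fold lower were 11 (0.0873%). The filter is a mean over both libraries, so some of the 180 passed it only through their level in Post. With a filter at 10 RPM in Pre alone, chosen after seeing the data, 131 of 12413 genes were higher and 24 lower. The direction of this imbalance rested on the scaling. With the FP236383 and FP671120 genes kept in the totals, 80 genes were higher and 281 lower, and the median of all genes was -0.44, so the statements below are relative to the other genes of each library. The spread of log2 ratios between the RNA only libraries (SD 0.37) was larger than that between the Pre libraries made with and without DNA (SD 0.16), in which 0 of the same genes were at least 2-fold higher with DNA and 2 were lower. Between the Post libraries the SD was 0.38, with 8 genes at least 2-fold higher with DNA and 296 lower. Between Post and Pre with DNA it was 0.27, with 25 genes at least 2-fold higher in Post and 20 lower. Both comparisons that hold the Post, RNA only library thus had the largest spreads. All of these comparisons used the genes that passed the filter on the RNA only libraries. The Post, RNA only library also had the fewest counts behind its RPM, 4151108 against 8001810 to 8491917 in the others. Over the 2615 genes averaging 100 RPM or more across the series, its SDs were 0.33 against Pre, RNA only and 0.36 against Post with DNA. Those of the Pre libraries and of the pair with DNA were 0.1 and 0.23. The Post library with DNA also lay further from its Pre library than the Pre libraries lay from each other.

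Of the genes higher in Post, 2 families held a part. Replication-dependent histones made up 52 of the 180 and cytosolic ribosomal proteins 20, while 14 were on other lists. On no list were 69 genes with a place on the genome and 25 that could not be placed by name.

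**Figure D1:**
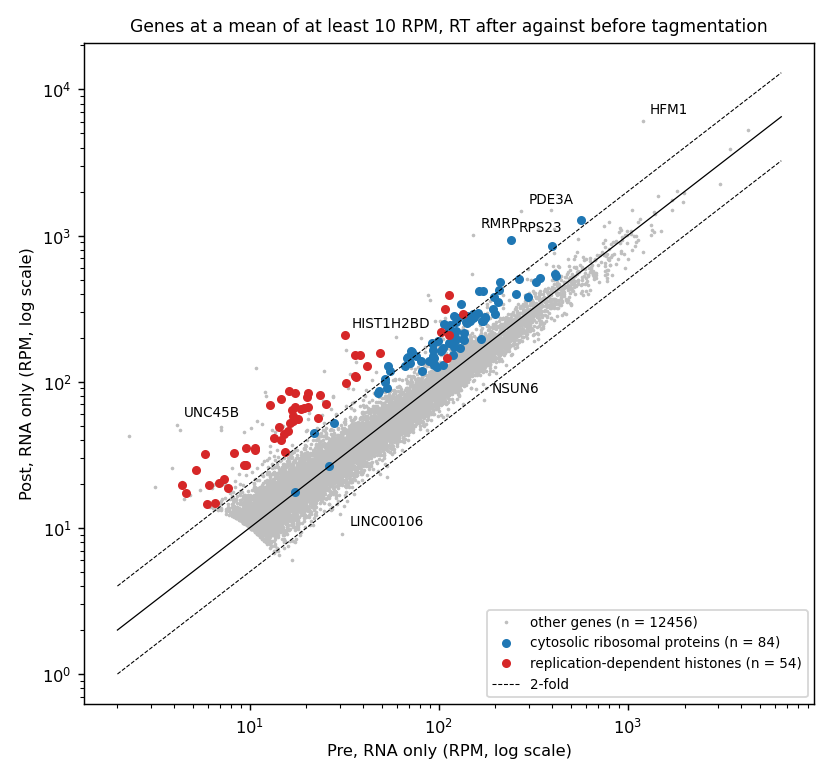
Level of each of the 12594 genes averaging 10 RPM or more in Pre, RNA only (x axis, RPM, log scale) and Post, RNA only (y axis, RPM, log scale), with the line of equality and dashed lines at 2-fold. The 54 replication-dependent histones (red) all lie above equality, while the 84 cytosolic ribosomal proteins (blue) have ratios from 1.01 to 3.85.

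Replication-dependent histone genes were higher in Post. All 50 core histone genes past the 10 RPM filter, which encode the H2A, H2B, H3 and H4 proteins of the nucleosome, were at least 2-fold higher, against 1.43% of all genes. Their median log2 ratio was 1.64, with a range from 1.04 to 2.68, against -0.01 for all genes. The filter uses the mean of both libraries, and 14 of the 50 were under 10 RPM in Pre and so passed only through their Post level. With the filter on the libraries with DNA instead, a choice made after seeing the data, 39 of 39 core histones were at least 2-fold higher (1.13% of all genes). Of the 62 core histones with a count, at any level, 61 were above 0 and 53 at least 2-fold higher. Of all 31977 genes with a count, 16215 were above 0 and 1.47% at least 2-fold higher. With the FP236383 and FP671120 genes in the totals, 53 of the 54 core and linker genes past the filter were above 0, 42 were at least 2-fold higher and their median was 1.18. With those totals 80 of the 11293 genes past the filter were at least 2-fold higher. Summed over the 64 core histone genes in the files, the level was 1083 RPM in Pre and 3746 RPM in Post, 3.46-fold higher (3.37 to 3.55). The interval of the ratio lay wholly above 1 for all 54 core and linker genes and wholly above 2 for 46 of them, where 18.0% and 0.929% of all genes did so.

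HIST1H2BD, an H2B gene, was at 31.9 RPM in Pre and 209 RPM in Post, a ratio of 6.56 (5.71 to 7.56) and the highest of the family. HIST1H3F, an H3 gene, was at 16.2 and 86.5 RPM, 5.35-fold higher (4.37 to 6.57). HIST1H2BK, another H2B gene, was at 12.9 and 69.4 RPM, 5.38-fold higher (4.29 to 6.79). In each of these the interval of the Post level lay far above that of the Pre level. HIST1H4C, the H4 gene with the most counts, was at 113 RPM in Pre and 395 RPM in Post, 3.49-fold higher (3.22 to 3.79). HIST1H4K was at 108 and 313 RPM. The smallest ratio of a core histone was that of HIST1H4I, at 15.4 and 32.8 RPM, which was still 1.04 on the log2 scale.

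The classes of histone differed mostly between core and linker. The median log2 ratio was 1.52 over 15 H2A genes, 1.71 over 15 H2B genes, 1.91 over 10 H3 genes and 1.61 over 10 H4 genes, and the ranges of these classes overlapped. The 4 linker (H1) genes, whose proteins bind the DNA between nucleosomes, had a median of 0.98. Of these, HIST1H1B stood at 134 RPM in Pre and 289.6 RPM in Post, a log2 ratio of 1.10. HIST1H1E had 1.08 and HIST1H1C 0.89. HIST1H1D was at 111 RPM in Pre and 145 RPM in Post, 1.31-fold higher (1.18 to 1.46), the smallest ratio in the family. The interval of HIST1H1D thus did not reach the lowest point ratio of any core histone. The genes lie in clusters, and the ratio was alike in both larger ones, with medians of 1.61 over the 39 genes on chromosome 6 and 1.63 over the 9 on chromosome 1. Of the 16 family members under the filter, all below a mean of 8.75 RPM or at it, 13 were higher in Post, 1 was lower and 2 had no count.

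**Figure D2:**
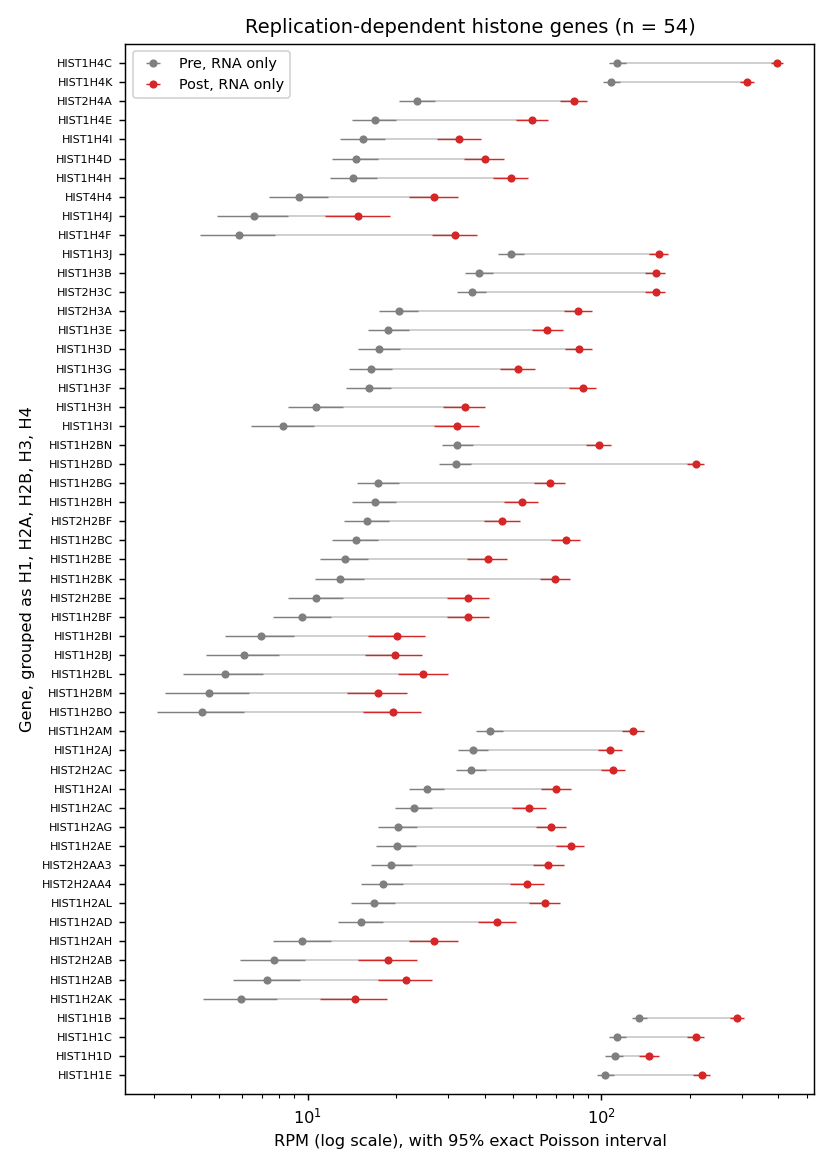
Level of each of the 54 replication-dependent histone genes past the filter in Pre, RNA only (grey) and Post, RNA only (red), in RPM on a log scale with 95% exact Poisson intervals, sorted by class and then by Pre level. Every gene is higher in Post, and the gap is narrowest for HIST1H1D, at 111 and 145 RPM.

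Replacement histone genes, whose mRNAs as a rule carry a poly(A) tail, had ratios near those of other genes. The 9 replacement histones past the filter, which are made throughout the cell cycle, had a median log2 ratio of 0.13 (range -0.47 to 0.56), and 0 of them were at least 2-fold apart. H3F3A, which encodes H3.3, was at 221 RPM in Pre and 242 RPM in Post. H3F3B, which encodes the same protein, was at 106 and 129 RPM. H2AFZ, the gene of H2A.Z, was at 87.1 and 129 RPM, a log2 ratio of 0.56, the highest of the list. The 13 measured genes of histone mRNA 3′ end processing had a median of 0.03, with LSM10, a subunit of the U7 particle that directs the cut, the only one at 2-fold (9.24 and 19.8 RPM). That is 7.69% of the 13, against 1.43% of all genes. The 40 genes of S phase and DNA replication had a median of -0.03, and 19 of them exceeded the median of all genes. Of the 40, 2 were at least 2-fold higher (5.0%, against 1.43% of all genes). Among them was GINS2, a subunit of the replicative helicase, at 22.6 RPM in Pre and 47.0 RPM in Post.

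The stem-loop itself was searched for near annotated transcript ends. The pattern was a stem GGNNCT of 6 bases, a loop TNTN of 4 bases and the reverse complement of that stem, on the transcript's strand only, in a window of 120 bases that ends 20 bases past each annotated end. It was found in 60 of the 63 replication-dependent histones that could be placed (95.2%). Of the 21703 genes with a count that could be placed and so searched, 61 held it (0.281%). The 61st gene, HIST2H3PS2, is a copy of an H3 gene kept on no list, and it lay under the filter at 2.31 RPM in Pre and 1.45 RPM in Post. None of the 12 replacement histones held the pattern. All 46 genes past the filter that held it were replication-dependent histones, 44 of which were at least 2-fold higher. The median was 1.60 for these 46 and 1.63 for the 3 placed histones past the filter without a match, and all 3 of these were at least 2-fold higher too. The 46 genes shared 6 hairpin sequences. The commonest, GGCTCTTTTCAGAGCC, was in 29 genes with a median log2 ratio of 1.60, and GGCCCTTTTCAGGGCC was in 7 genes, all of class H4, with a median of 1.71. Another 5 histones past the filter, all of class H2B, could not be placed and were not searched.

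The same family was also higher in Post when DNA was profiled, by less. In that pair 53 of the 54 genes had a log2 ratio above 0 and 10 were at least 2-fold higher, where 0.199% of all genes were. The median of all 54 was 0.70 there and 1.61 between the RNA only libraries. HIST1H4C was the exception, at 127 RPM in Pre and 113 RPM in Post with DNA. The pairs share no library, and the difference between them was not tested.

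RMRP, the RNA component of ribonuclease MRP, was the clearest single transcript without a poly(A) tail. It was at 152 RPM in Pre (144 to 161) and 1002 RPM in Post (972 to 1033), 6.57-fold higher (6.17 to 7.01), and with DNA profiling it was at 63.1 and 603 RPM. The gene covers chr9:35657754-35658017 on the minus strand. Only 3 of the 41 genes listed as noncoding RNAs without a poly(A) tail were in the count table, and the other 2 were under the filter. SCARNA9, a Cajal body RNA, was at 2.80 RPM in Pre and 14.0 RPM in Post, and TERC, the telomerase RNA, was at 3.53 and 11.6 RPM.

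Ribosomal protein genes were higher in Post as a family, by a smaller amount than histones. All 84 measured genes of the cytosolic subunits had a log2 ratio above 0, with a median of 0.83, and the interval of the ratio lay wholly above 1 for 82 of them, against 18.0% of all genes. For the small subunit the median was 0.96 over 33 genes, of which 13 were at least 2-fold higher. For the large subunit it was 0.75 over 51 genes, of which 7 were, against 1.43% of all genes. The summed level was 4484 RPM in Pre and 9071 RPM in Post for the small subunit, 2.02-fold higher (1.99 to 2.05), and 7423 and 12362 RPM for the large one, 1.67-fold higher (1.65 to 1.68). With the FP236383 and FP671120 genes in the totals, 74 of the 84 were above 0, the median was 0.40 and 1 was at least 2-fold higher.

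RPS23 of the small subunit had the highest ratio, at 243 RPM in Pre and 937 RPM in Post (3.65 to 4.07-fold). It overlaps ATG10, an autophagy gene on the other strand, over 3538 bases, and ATG10 was at 409.5 RPM in Pre and 1107 RPM in Post. The strand setting of the counting is not given in the sources used here, so the reads of these genes cannot be told apart. RPLP1, of the ribosomal stalk, was at 396 and 848 RPM. RPL10, the highest of the large subunit, was at 163 and 418 RPM. At the other end RPS27L and RPL39L, paralogues of RPS27 and RPL39, had log2 ratios of 0.02, with 17.4 and 17.6 RPM for RPS27L and 26.3 and 26.7 RPM for RPL39L. Ribosomal protein genes have many processed pseudogenes, and uniquely placed reads can be split among them.

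With DNA profiling the ribosomal protein genes lay on the other side of 0. There 83 of the 84 had a log2 ratio below 0, with medians of -0.49 for the small and -0.56 for the large subunit. RPLP1 was at 478 RPM in Pre and 257 RPM in Post in that pair, a log2 ratio of -0.90. Histones, in contrast, were higher in Post in both pairs. The difference between the pairs was not tested.

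**Figure D3:**
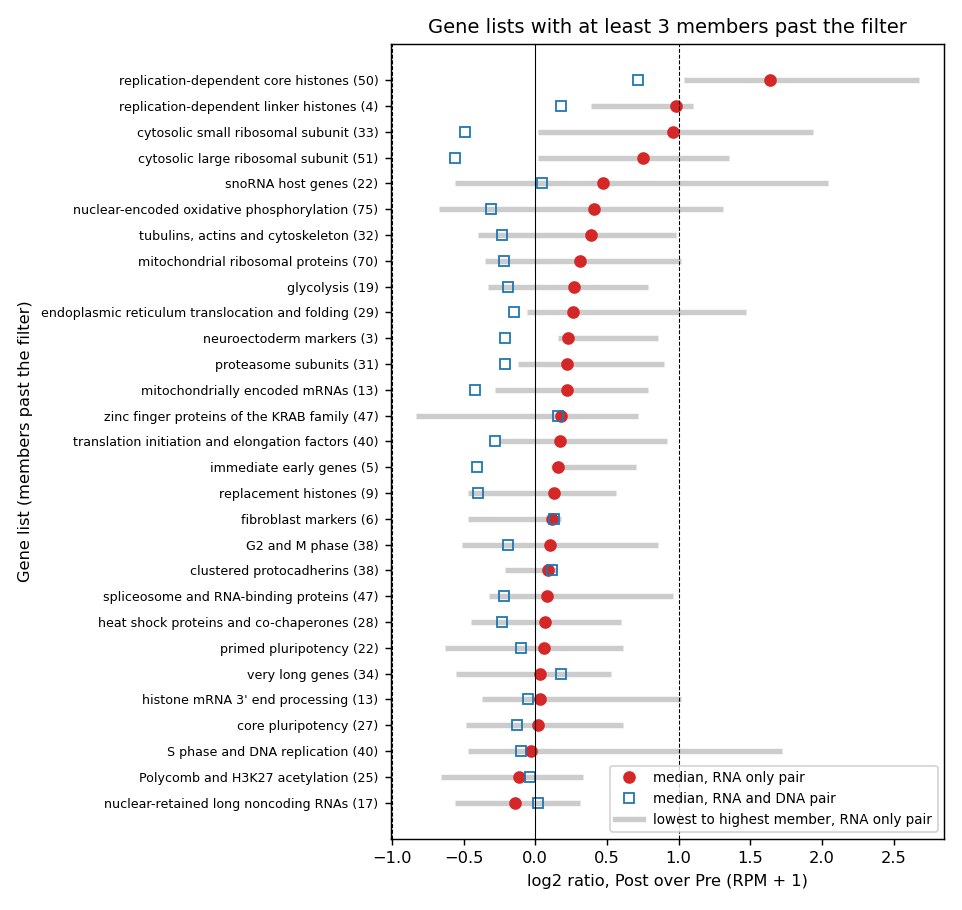
Median log2 ratio, Post over Pre, of each gene list with at least 3 members past the filter (number in brackets) for the RNA only pair (red circles, with a grey bar from the lowest to the highest member) and the RNA and DNA pair (blue squares). The core histones have medians of 1.64 and 0.72, and the ribosomal proteins lie at 0.96 and 0.75 in the RNA only pair but at -0.49 and -0.56 in the other.

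Several other lists of housekeeping genes had medians above 0, by less than the ribosomal proteins. Nuclear-encoded subunits of oxidative phosphorylation had a median log2 ratio of 0.41 over 75 genes, 67 of them above the median of all genes. At least 2-fold higher were 2 of the 75 (2.67%, against 1.43% of all genes). These were ATP5MC3, a subunit of ATP synthase, at 35.3 and 88.7 RPM, and UQCR10, a subunit of complex III, at 12.9 and 33.0 RPM. Mitochondrial ribosomal proteins had a median of 0.31 over 70 genes, with MRPL41 the only one at 2-fold (1.43%, the same share as of all genes). Tubulins, actins and other cytoskeletal genes had 0.39 over 32 genes, led by TUBA1B (298 and 587 RPM), an alpha-tubulin. GAPDH, of glycolysis, was at 545 RPM in Pre and 941 RPM in Post, 1.73-fold higher (1.65 to 1.80), and its list had a median of 0.27 over 19 genes. Proteasome subunits stood at 0.22 over 31 genes and translation factors at 0.17 over 40. Apart from the 3 genes named as at least 2-fold higher, no gene of these lists was past 2-fold, so these values concern the medians. Each of these medians was below 0 in the RNA and DNA pair.

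Genes read from the mitochondrial genome, whose mRNAs carry short tails, differed among themselves. The median over the 13 mRNAs was 0.22, from -0.28 for MT-ND5 (1139 RPM in Pre and 939.5 RPM in Post), a subunit of complex I, to 0.79 for MT-CO2 (293 and 507 RPM), a subunit of complex IV. MTRNR2L12 and MTRNR2L8, nuclear genes with sequence like the mitochondrial 16S rRNA, were higher at 81.0 and 199 RPM and at 27.8 and 78.3 RPM. Their counts are uncertain for that reason.

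The ratio fell with the length of the gene. Over the 11288 genes with a place, the shortest 1129 by span (up to 9480 bases) had a median log2 ratio of 0.37. They held 104 of the genes at least 2-fold higher, many of the histone and ribosomal protein genes above among them. The next 1129, up to 16950 bases, had 0.13 and 10 such genes. From the fifth of the 10 bins on, the medians lay between -0.05 and -0.11. Spearman's rho with span was -0.31 across genes, which are not independent replicates and share the libraries, and with the length of the longest transcript it was -0.18. In the RNA and DNA pair the trend ran the other way, with rho of 0.46 for span, from a median of -0.26 in the shortest bin to 0.15 in the longest. Genes under 20 kb with no snoRNA gene inside had a median of 0.20 between the RNA only libraries, where that of the ribosomal proteins was 0.83 and that of the histones 1.61. That group still held histone and ribosomal protein genes. The 246 genes with 1 exon whose symbols do not start with HIST had a median of 0.12, and 3.25% of them were at least 2-fold higher. By transcript GC the medians went from 0.12 in the lowest bin to -0.11 in the seventh and -0.02 in the highest.

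**Figure D4:**
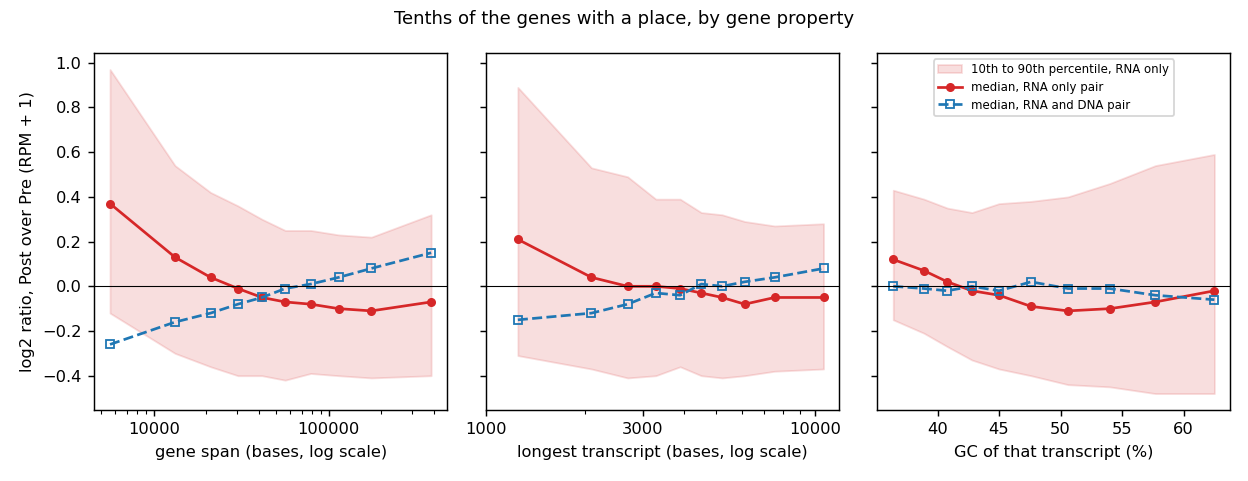
Median log2 ratio, Post over Pre, in 10 equal bins of the 11288 genes with a place, by gene span (left, bases, log scale), length of the longest transcript (middle, bases, log scale) and GC of that transcript (right, percent), for the RNA only pair (red, with the band from the 10th to the 90th percentile) and the RNA and DNA pair (blue). By span the RNA only medians go from 0.37 down to -0.07 and those with DNA from -0.26 up to 0.15.

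Some of the highest ratios belonged to genes that hold sequence like ribosomal RNA. This feature, like that of small RNA genes below, was looked at after the ratios had been seen. The 45S precursor, which is cut into the 18S, 5.8S and 28S rRNAs, was aligned to GRCh38, and 72 genes past the filter held a segment of at least 100 bases like it. Of these, 5 were at least 2-fold higher (6.94%), and 4 of the 5 were among the 8 genes with a segment of at least 95% identity. The 64 genes whose segments were less alike had a median log2 ratio of -0.13, and 1.56% of them were at least 2-fold higher, near the 1.43% of all genes. Every segment of at least 95% identity lay in an intron of its gene.

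HFM1, which encodes a helicase of meiosis, had the most counts of any gene outside the FP236383 and FP671120 set in Post. It was at 1201 RPM in Pre and 6059.6 RPM in Post, 5.05-fold higher (4.93 to 5.17), and at 1074 and 2349.6 RPM with DNA. Its segment, 366 bases at chr1:91387226-91387591, matched positions 12084 to 12449 of the precursor at 99.7%. PDE3A, a phosphodiesterase gene, was at 273 RPM in Pre and 1475 RPM in Post, 5.39-fold higher (5.14 to 5.66). Its segment, 148 bases at chr12:20551424-20551571, matched positions 4932 to 5079 without a mismatch. The first 30 bases of each, on the precursor's strand, are shown as stretches that the gene and the precursor share.
HFM1, minus strand of GRCh38: TCCGGGGACAGTGCCAGGTGGGGAGTTTGA
PDE3A, plus strand of GRCh38: ACGGACAGGATTGACAGATTGATAGCTCTT
UNC45B, a myosin chaperone gene, was at 4.13 RPM in Pre and 50.8 RPM in Post, but its segment lies on the strand opposite to the gene. SLCO5A1, a transporter gene with its segment on its own strand, was at 89.7 and 363 RPM. ANKRD30BL, with a segment of 4114 bases at 80.5% identity, was at 32.2 and 166 RPM. The other 4 genes with a close segment were not past 2-fold, with log2 ratios of 0.76 for AAMDC, 0.24 for INTS4, 0.21 for PID1 and -0.13 for PMF1. AAMDC and INTS4 hold the same segment, which lies on the strand opposite to INTS4. How reads of rRNA were divided among such copies was not tested.

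Some genes that hold small noncoding RNA genes were also among the higher ones. The snoRNA host genes, whose introns are processed to snoRNAs that guide the modification of rRNA, had a median log2 ratio of 0.47 over 22 genes, 19 of them above the median of all genes and 4 at least 2-fold higher. SNHG8 was at 11.7 RPM in Pre and 51.1 RPM in Post, SNHG12 was at 13.1 and 46.5 RPM, SNHG15 was 3.35-fold higher (2.67 to 4.22) and SNHG3 was at 95.6 and 261 RPM. GAS5, another host, was at 133 and 179.7 RPM (1.23 to 1.48-fold). Among the ribosomal proteins the median was 0.83 over the 28 genes with a snoRNA gene inside on the same strand and 0.83 over the 56 placed genes without one. Across the genome 13 of the 252 genes with a snoRNA gene inside were at least 2-fold higher (5.16%), where 1.43% of all genes were. Of the 420 with a small nuclear RNA gene 4 were (0.952%), below the share of all genes, and their median was -0.09. Those 4 included WDR74, whose annotated span includes the U2 gene RNU2-2P, at 24.7 RPM in Pre and 118 RPM in Post. Also among them were LDOC1 (12.2 and 80.2 RPM), with the U6 copy RNU6-3P, and ANKRD30BL. TMEM107, with a log2 ratio of 1.47, holds SNORD118, the U8 RNA. The counts do not say whether a read came from the gene's mRNA or from the small RNA.

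Among the 15 highest ratios, 5 were of genes with clone names that could not be placed. AL021155.5 was at 2.31 RPM in Pre (1.39 to 3.61) and 42.4 RPM in Post (36.4 to 49.1), a log2 ratio of 3.71 and the highest of all. AC007952.4 was at 10.8 and 124 RPM, and AL137798.2 at 4.26 and 47.0 RPM. CR381670.2 and CR392039.4 were counted more often, at 394 and 1498 RPM and at 150.4 and 548 RPM. These 5 named genes were also above 0 with DNA, by 0.46 to 2.30 on the log2 scale. Of the 180 genes higher in Post in the RNA only pair, 110 were above 0 in the RNA and DNA pair and 70 below. Histones held a large part of the 110, since 53 of the 54 past the filter were above 0 there. The median of all genes there was -0.01. Of the 180, 24 were at least 2-fold higher there as well, against 0.199% of all genes. Another 5 were at least 2-fold lower there, against 0.159%.

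The 11 genes lower in Post formed no family among the lists. LINC00106, a long noncoding RNA, was at 31.0 RPM in Pre and 9.15 RPM in Post (0.204 to 0.416-fold), a log2 ratio of -1.66. NSUN6, an RNA cytosine methyltransferase, was at 174 and 75.2 RPM, and with DNA it was lower as well, by -0.71 on the log2 scale. PHF2, a histone demethylase gene, had a ratio of 0.417 (0.303 to 0.564), while with DNA its log2 ratio was 0.19. DANT1, a long noncoding RNA that overlaps DANT2 on the other strand, was at 53.1 and 22.4 RPM. C16orf54 was at 31.5 and 14.2 RPM and TRIM73, one of several near-identical TRIM genes, at 32.6 and 15.2 RPM. The remaining 5 (AL627309.4, AC092275.1, AC078883.2, AL353593.2 and AL445248.1) bore clone names, with log2 ratios from -1.34 to -1.02. In the RNA and DNA pair 8 of the 11 were below 0 and 0 were at least 2-fold lower, and the interval of the ratio lay wholly below 1 over 2 for only 2 of the 11.

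**Figure D5:**
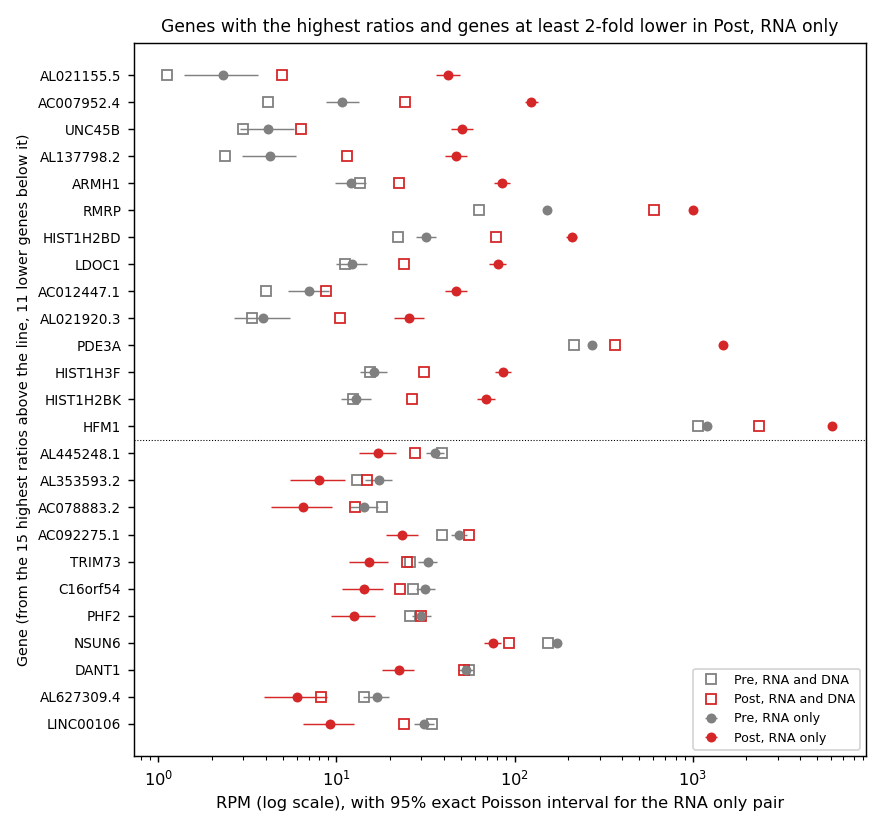
Levels in RPM (log scale) of genes from the 15 highest log2 ratios (above the dotted line) and the 11 genes at least 2-fold lower in Post (below it), in Pre (grey) and Post (red), as filled circles with 95% exact Poisson intervals for the RNA only libraries and as open squares for the libraries with DNA. RMRP stands at 152 and 1002 RPM and HFM1 at 1201 and 6059.6 RPM in the RNA only libraries.

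Very long genes and nuclear noncoding RNAs had medians near that of all genes. The 34 very long genes had a median log2 ratio of 0.03, from -0.55 for WWOX (702 and 480.4 RPM) to 0.53 for CCSER1 (109 and 158 RPM). The 17 nuclear-retained long noncoding RNAs past the filter had -0.14, with 13 of them below the median of all genes and 4 above. All 25 in the files summed to 13204 RPM in Pre and 13179 RPM in Post (0.988 to 1.01-fold). MALAT1, of nuclear speckles, was at 1958 and 1689 RPM, and XACT, which coats the X chromosome in human pluripotent cells, at 1976 and 1949 RPM. SNHG14, the long transcript that hosts snoRNAs on chromosome 15, was at 4329.8 and 5308 RPM.

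Core pluripotency genes had a median log2 ratio of 0.02 over 27 measured genes, and 0 were past 2-fold. POU5F1, the transcription factor OCT4, was at 197 RPM in Pre and 284 RPM in Post, SOX2 at 147 and 128 RPM, and NANOG at 38.8 and 46.3 RPM. Genes of the primed state had a median of 0.06 over 22, including ZIC2 (32.0 and 46.0 RPM) and FGFR1 (780.2 and 543 RPM). None of the 15 naive state genes in the files passed the filter, and they summed to 34.3 RPM in Pre and 31.3 RPM in Post (0.736 to 1.13-fold). Of the mesendoderm and endoderm markers KRT19 alone passed, and GSC, SOX17 and HHEX had no count. None of the trophectoderm and amnion markers passed. NES, TUBB3 and DCX passed among the neuroectoderm markers while PAX6, of neural progenitors, was at 1.95 and 1.45 RPM. Of the 11 fibroblast markers 6 passed (COL1A2, FBN1, COL6A3, COL1A1, TWIST2 and PDGFRB), led by COL1A2 at 28.9 and 31.1 RPM, with a median log2 ratio of 0.12, while LUM and COL3A1 were at or below 0.241 RPM. Markers of primed pluripotent cells, the labelled type, were thus measured in both libraries.

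Depth differed between the libraries, so detection was compared at one depth. With Pre thinned to the 4151108 counts of Post, 28883 genes had at least 1 count in Pre and 29600 in Post. With all genes kept and both libraries at 6368721 counts the order was the reverse, at 29735 in Pre and 29606 in Post, as it was without thinning (30714 and 29600). The direction thus rested on whether the FP236383 and FP671120 genes were counted. With at least 5 counts at 4151108 counts the numbers were 21887 and 22447. Between 10 and 100 RPM there were 9777 genes in Pre and 10151 in Post, between 100 and 1000 RPM there were 2606 and 2502, and above 1000 RPM there were 30 and 37. Of the 44 genes at 1000 RPM or more in either library, 7 were at least 2-fold higher in Post (ATG10, CR381670.2, HFM1, PDE3A and RMRP among them) and 0 were at least 2-fold lower.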

How the data were processed

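The authors deposited whole-number counts for 33640 gene symbols, without normalization. STAR 2.7.11b, Trim Galore 0.6.10, Bowtie 1.3.1, SAMtools, GRCh38 and Bowtie2 2.5.3 stand in the submitters' processing notes, and the methods describe unique alignments with duplicates removed by position and molecular identifier. The annotation and the strand setting are not given in the sources used here. The tables hold 60 more barcode columns without a labelled condition, which were left out.

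Counts were divided by library totals without the 6 FP236383 and FP671120 genes. Ratios took a pseudocount of 1 RPM, a filter at a mean of 10 RPM over the 2 libraries and a threshold of 2-fold. Symbols were matched to GENCODE release 44 directly for 21864 genes and by an older name for 489, which placed 89.6% of the genes past the filter. Intervals of levels are exact Poisson intervals and those of ratios exact binomial intervals at 95%, for counting error only. The 45S precursor (RefSeq, chr21:8433222-8446572, GRCh38) was aligned with BLAST 2.17.0.

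The comparison and its 34 gene lists were chosen with earlier results of these data known. The rule for named genes took genes of at least 1000 RPM, the 15 highest and lowest ratios past 2-fold, the 4 most abundant and the extreme members of each list, all cell type markers, and genes at 0 in one library and at 10 RPM or more in the other, of which there were 0. Genes named for rRNA-like segments, small RNA genes or overlaps, the linker histones and other single histones, list members past 2-fold and the clone-named CR392039.4 were chosen after their values were seen. On simulated counts of 12507 genes, both libraries were drawn from the same profile with counting error alone. There 100 of 100 genes raised 3-fold and 100 of 100 lowered 3-fold were called, with 0 of the unchanged genes. Variation between libraries was left out, so this checks the calculation and gives no error rate for the genes called here.

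Alternatives were other scalings (TMM from edgeR 4.0.16 among them), filters, folds, pseudocounts and thinning. R 4.3.3 and Python 3.11.15 were used with scipy 1.17.1, pandas 2.3.3, pysam 0.24.0, matplotlib 3.10.9 and numpy 2.4.6. Some genes that this rule names are not reported here.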

Additional observations from a re-analysis of the deposited data

Results flagged for a closer look

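Results were singled out where the libraries without DNA profiling and those with it gave log2 ratios on opposite sides of 0, by at least 0.3 in both for the median of a list and at least 2-fold in both for a gene. Each pair is 1 library against 1, so the difference between them was not tested. The median log2 ratio, Post over Pre, of the large ribosomal subunit was 0.75 in the RNA only pair and -0.56 with DNA, that of the small subunit was 0.96 and -0.49, and that of nuclear-encoded oxidative phosphorylation was 0.41 and -0.31.

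Of single genes at least 2-fold apart in opposite directions, SLC26A3, an anion exchanger gene, had log2 ratios of 2.13 and -1.38. The clone-named AC060765.1 had 2.01 and -1.04. ASIP, which encodes the agouti signalling protein, had 1.76 and -1.01. SP100, a nuclear body protein gene, had 1.57 and -1.24, and PRRG3 had 1.09 and -1.25.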

How the results depend on the processing

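The 180 higher and 11 lower genes became 80 and 281 with totals of all genes, 431 and 127 with a filter at 1 RPM, 70 and 1 with a filter at 50 RPM, 67 and 1 at 3-fold, and 117 and 2 where the interval of the ratio had to lie wholly past 2-fold. The lower genes alone moved past 1.5 times with median-of-ratios size factors (20), a pseudocount of 0.5 RPM (17) or 5 RPM (3), thinning to the smaller total (18), protein-coding genes only (4) and, chosen after seeing the data, a filter at 10 RPM in Pre alone (24). Under that last filter 131 genes were higher. With TMM library sizes there were 143 higher and 12 lower genes. The higher genes were 22.2% of all called genes with totals of all genes and 94.2% without the FP236383 and FP671120 genes, and the cause of their unequal share in the libraries was not tested. Medians less that of all genes kept their sign under 5 alternatives of pseudocount, depth, filter and centre, which leave the scaling as it was, in 29 of 32 lists, the exceptions being core pluripotency (0.04 to -0.07), S phase and DNA replication (-0.02 to 0.02) and mesendoderm and endoderm markers (0.34 to -0.12). That of core histones ranged from 1.48 to 1.68 under the same 5. No paired analysis was possible because each condition is 1 library and the labels give no replicate numbers, and no library could be left out. Depth limits what can be seen of genes under 10 RPM.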

Other observations

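Other gene groups gave values that belong to no result above. The 25 measured genes of Polycomb and H3K27 acetylation, the machinery of the marks profiled in the other libraries of the series, had a median log2 ratio of -0.11, 18 of them below the median of all genes, and all 36 of the list in the files summed to 4869 RPM in Pre and 4138 RPM in Post (0.835 to 0.865-fold). KDM2B, which recruits Polycomb to CpG islands, was at 246 and 155 RPM, and JARID2, a cofactor of the H3K27 methyltransferase, at 1505 and 1082 RPM.

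The 47 measured zinc finger genes of the KRAB family, repressors of transposable elements, had a median of 0.18, from -0.83 for ZNF10 to 0.72 for ZNF570, and 0.16 with DNA profiling. The 38 clustered protocadherins, which share 3′ exons so that reads cannot be told apart between them, had 0.09 and 0.12. Of the heat shock proteins, HSP90AA1 was at 1039.9 RPM in Pre and 1030.3 RPM in Post.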
